A study of Mus musculus with 23 samples.

Results

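The genes described here are the 100 nuclear genes that were lower in Zbtb11 KO mouse embryonic stem cells (ESCs) than in their EtOH control and that lie outside a set of named families. Members were chosen on RNA-seq values. A gene needed a mean of at least 5 CPM (counts per 1000000 counts on genes) in the EtOH control and a ratio of Zbtb11 KO to EtOH control CPM of 0.67 or less in each of the 3 pairs of libraries that carry the same replicate number. Of 37310 genes, 124 met these values. The 24 left out by name included genes for subunits of respiratory complex I and of the mitochondrial ribosome, and zinc finger genes with a Zfp symbol. The others were single genes such as Alg3, Pigq, Slc35a3, Hus1 and Ndufaf1, an assembly factor of complex I. The remaining 100 comprised 99 protein-coding genes and 1 pseudogene, Gm15920, spread over 20 chromosomes.

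All cells derived from the E14 mouse ESC line, grown without feeders in serum and LIF, and each group had 3 biological replicates. The Zbtb11 KO cells carried Zbtb11 lox/lox and ERt2-Cre at the Rosa26 locus, and received 250 nM 4-hydroxytamoxifen (4OHT) in ethanol for 48 h. The EtOH control was the same line given ethanol alone for 48 h. The 4OHT control was Zbtb11 WT/WT with a WT Rosa26 locus, given 250 nM 4OHT for 48 h, so both genotype and agent set it apart from the EtOH control. The floxed line goes back to 1 homozygous clone in which loxP sites were placed around the third exon of Zbtb11, and the ERt2-Cre stays inactive until 4OHT is given. ChIP-seq came from untreated cells, as 4 libraries with a Zbtb11 antibody in E14 WT, 3 FLAG libraries in Zbtb11 FLAG/FLAG cells and 2 FLAG control libraries in E14 WT.

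Zbtb11 belongs to the ZBTB family, whose proteins join a BTB domain, used for protein contacts, to zinc fingers that bind DNA. Of the genes described here, those sorted by role below make the coats and SNAREs that carry membrane between compartments. They also make factors of transcription by the different RNA polymerases and the enzymes that finish tRNA and ribosomal RNA. Further products are enzymes of mitochondria, peroxisomes and the endoplasmic reticulum. Proteins of these machines are needed in nearly all cell types, and their mRNAs usually start from CpG-rich promoters without a TATA box.

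Libraries held 14301457 to 23876604 counts on genes, with a median of 20416692. The 8 ESC marker genes measured were above 1 CPM in every library, and their summed level was 3621 to 4045 CPM in the EtOH control, 3691 to 4039 in Zbtb11 KO cells and 4000 to 4410 in the 4OHT control. Of 11 markers of other cell types, 5 stayed under 1 CPM in every library, and their sum was 38.5 to 54.5, 40.5 to 54.5 and 30.5 to 36.4 CPM in the same order. Replicate 1 stood apart from the others. For 50 of the 100 genes it lay outside replicates 2 and 3 on the same side in all 3 groups, as it did for 59.6% of all 14346 genes tested. The deletion itself could not be read from these counts, because no gene in the annotation used carries the symbol Zbtb11. In bulk samples like these, fewer cells of a type and less RNA per cell cannot be told apart.

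Together the 100 genes took 3831 to 4127 CPM in the EtOH control libraries, 1651 to 1909 in the Zbtb11 KO libraries and 4184 to 4512 in the 4OHT control libraries. These sums restate the choice of the genes for the first pair of groups, and nothing was tested on them. The share of counts from the mitochondrial genome was 8.65 to 10.1% in the EtOH control, 7.0 to 8.21% in Zbtb11 KO cells and 7.29 to 10.5% in the 4OHT control, so that this share was lower in the KO than in the EtOH control without overlap. Its part in the ratios was not tested. The median ratio of Zbtb11 KO to EtOH control was 0.422, 0.455 and 0.444 in the 3 pairs. On the geometric mean of the 3 pair ratios, 10 genes were at 0.25 or below, 62 were at or below 0.5 and 38 above it. The median of the mean log2 ratio was -1.23, against -1.57 for the 24 genes left out by name. Just inside the limit were Cdk5rap1, Slc39a13 and Las1l, with a weakest pair at 0.639, 0.645 and 0.662. Just outside it were Dcp1a, Cdc16 and Pcid2, at 0.683, 0.690 and 0.697.

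**Figure D1:**
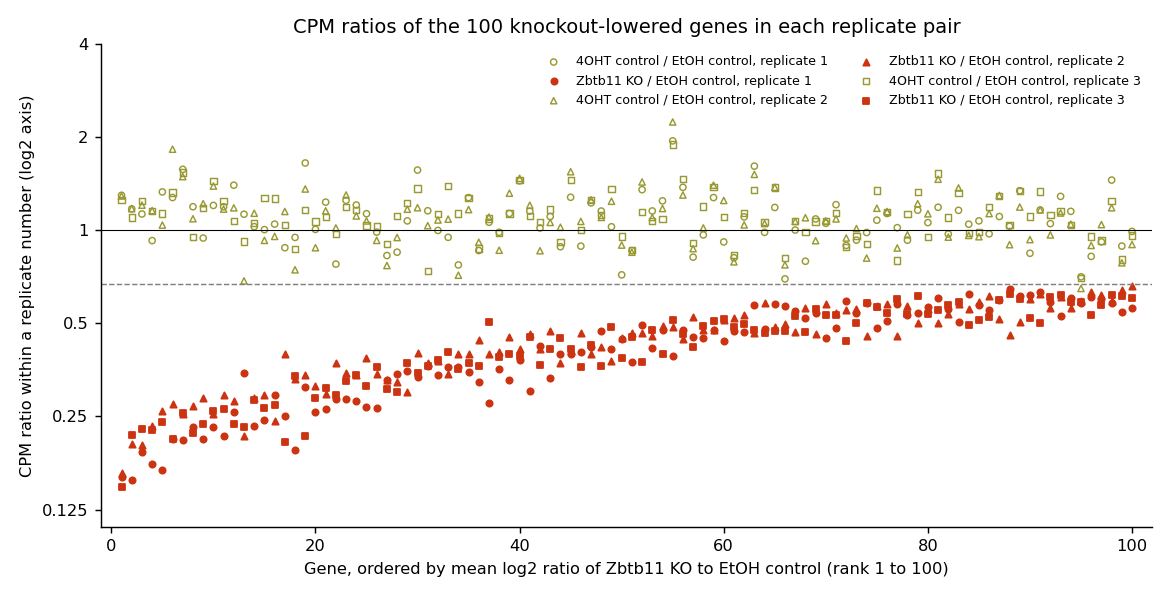
Ratio of CPM within each replicate number (log2 axis) for the 100 genes, ordered by their mean log2 ratio of Zbtb11 KO to EtOH control, with filled symbols for Zbtb11 KO and open symbols for the 4OHT control, both over the EtOH control, and a dashed line at the limit of 0.67. Filled symbols lie at or below the line because the genes were chosen there, and open symbols scatter around 1, with 50 genes above it and 15 below it in all 3 pairs, where 29.9% and 27.2% of all tested genes were.

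In all 100 genes the highest Zbtb11 KO value was below the lowest EtOH control value, a pattern seen in 2.61% of all genes tested and one the choice of genes all but fixes. Ankrd40, an ankyrin repeat gene, was lowest relative to its control. It was at 55.5, 60.8 and 64.0 CPM in the EtOH control, 8.83, 9.99 and 9.47 in Zbtb11 KO cells and 72.0, 78.5 and 80.0 in the 4OHT control. The KO libraries differed from one another by far less than they differed from either control, and the mean log2 ratio to the EtOH control was -2.67 ± 0.08 (SD, n = 3 pairs). Taf1b encodes a subunit of the selectivity factor SL1, which brings RNA polymerase I to ribosomal RNA genes. Its values were 22.3, 25.0 and 24.7 CPM in the EtOH control, 3.48, 5.09 and 5.40 in Zbtb11 KO cells and 26.2, 29.3 and 27.2 in the 4OHT control. The log2 ratio was -2.39 ± 0.26, so the spread over pairs was wider than for Ankrd40, with the lowest KO value in replicate 1.

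Several of the other strongly lowered genes act in membrane traffic and protein processing. Stx18, a SNARE that receives vesicles returning to the endoplasmic reticulum, was at 6.78, 10.1 and 9.71 CPM in the EtOH control, at 1.14, 2.64 and 2.33 in Zbtb11 KO cells and at 9.02, 10.5 and 11.0 in the 4OHT control. Zmpste24, the protease that matures prelamin A, was at 35.1, 42.8 and 47.7, at 7.45, 12.3 and 11.3, and at 33.1, 52.1 and 56.5 CPM. Both genes were lowest in replicate 1 of each group, and in both the KO libraries were separate from both controls. Wdr11, a WD repeat protein of traffic between endosomes and the Golgi, was at 69.5, 59.1 and 56.6 CPM, at 15.02, 17.3 and 14.9, and at 82.8, 69.1 and 70.5. Here replicate 1 was the highest in both controls but not in the KO.

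Others of these 15 genes serve mitochondria. Acsf3 encodes the mitochondrial malonyl-CoA synthetase, and it was at 13.8, 13.1 and 11.99 CPM in the EtOH control, 2.88, 3.33 and 3.07 in Zbtb11 KO cells and 21.7, 19.5 and 18.4 in the 4OHT control. Coq3, a methyltransferase of ubiquinone synthesis, was at 15.1, 13.4 and 14.9, at 3.91, 3.77 and 3.52, and at 21.1, 15.9 and 16.0 CPM. Taco1, which activates translation of cytochrome c oxidase subunit I, was at 15.3, 20.7 and 17.5, at 3.73, 6.07 and 4.66, and at 15.4, 19.2 and 22.3 CPM. The 3 genes differed in where the 4OHT control lay. It was above all EtOH control libraries for Acsf3 and Coq3 and overlapped them for Taco1.

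Besides Taf1b, nuclear proteins are encoded by Ino80b, Arl6ip4 and Nkap. Ino80b, a subunit of the INO80 chromatin remodeller, was at 5.99, 7.41 and 8.05 CPM in the EtOH control, 1.38, 2.01 and 1.78 in Zbtb11 KO cells and 7.13, 8.08 and 7.66 in the 4OHT control. Arl6ip4, a splicing regulator, was at 21.6, 18.7 and 17.9, at 4.99, 4.75 and 4.66, and at 25.9, 26.0 and 25.8 CPM. Nkap, a protein of the spliceosome and a transcriptional corepressor, was at 32.7, 28.3 and 30.5, at 7.63, 8.08 and 8.63, and at 33.6, 32.1 and 32.1 CPM. Psmg3, an assembly chaperone of the proteasome, varied more among its controls, with 9.06, 15.9 and 13.7 CPM against 3.12, 3.43 and 3.17 in Zbtb11 KO cells. The 3 genes without an established name were 0610011L14Rik, 5730455P16Rik and 2810408M09Rik, with mean log2 ratios of -2.28 ± 0.12, -2.25 ± 0.22 and -2.12 ± 0.22.

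**Figure D2:**
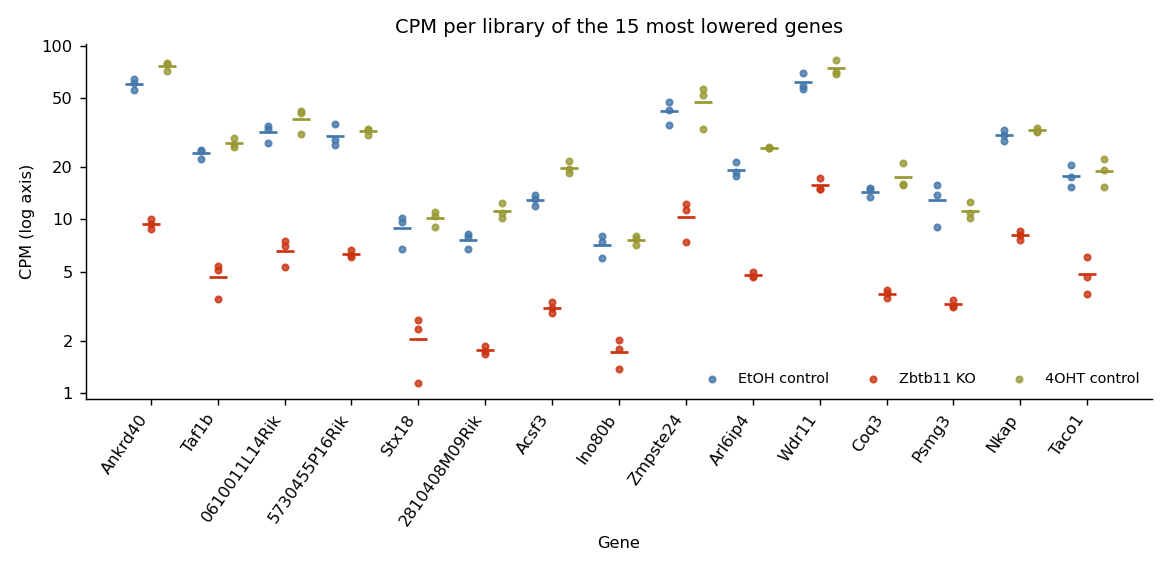
CPM (log axis) in each library of the 15 genes with the lowest mean log2 ratio, with a point per library and a bar at the group mean for the EtOH control, Zbtb11 KO and the 4OHT control (n = 3 each). In each of the 15 genes the KO points lie below all points of both controls, from 1.14 CPM for Stx18 to 17.3 CPM for Wdr11.

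The genes were not the most abundant of the ESC. Their median level in the EtOH control was 24.6 CPM, from 5.71 to 324, where all genes at or above 5 CPM had a median of 34.5. As RPKM, which is CPM per kb of exon, the medians were 7.07 and 9.33. The highest on this scale were Anapc5, at 111, a subunit of the anaphase-promoting complex that marks cell-cycle proteins for destruction, and Ddx1, at 88.8, an RNA helicase of the tRNA ligase complex. They were followed by Sec13 at 69.1, Wdr36 at 52.2 and Fem1b, the substrate receptor of a cullin ubiquitin ligase, at 49.99. Gm15920, Gtf3c3, Sar1b, 1110002N22Rik and Nsfl1c, a cofactor of the p97 ATPase, lay between 28.4 and 21.8. Anapc5 was at 299, 309 and 305 CPM in the EtOH control, at 145, 167 and 163 in Zbtb11 KO cells and at 362, 336 and 347 in the 4OHT control. Ddx1 was at 212, 225 and 231, at 59.4, 76.4 and 78.8, and at 256, 250 and 268 CPM. Both kept a wide gap between the KO and either control at these high counts.

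The genes were sorted by role with 14 lists, 12 of cellular machines and 2 of cell type markers, which hold 53 of the 100 genes. These lists were drawn up with the lowered genes known, so the number of members in a list carries no weight. The other genes of a list are those left once the members, chosen on the same contrast, were taken out. Few calls among them are thus largely fixed by the choice, and their values are given as a description. In the fit over all 9 libraries (edgeR, quasi-likelihood F test), 81 of the 100 genes passed an adjusted p of 0.05 as lower in Zbtb11 KO than in EtOH control cells, where 0.843% of all genes did. That contrast chose the genes, so nothing is read from the count.

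Among SNAREs, vesicle coats and sorting complexes, 7 of 47 genes tested were members. Sar1b is the GTPase that starts the COPII coat and Sec13 forms its outer cage. Sar1b was at 29.9, 32.6 and 29.7 CPM in the EtOH control, 10.5, 9.80 and 11.1 in Zbtb11 KO cells and 32.1, 38.1 and 36.4 in the 4OHT control. Sec22b works between the endoplasmic reticulum and the Golgi, Stx16 and Vti1a at the Golgi and endosomes, and Ap3s2 in the AP-3 adaptor towards lysosomes. As a percentage of the EtOH control mean, the KO mean was 23.0% for Stx18, 31.7% for Ap3s2, 32.1% for Stx16, 34.0% for Sar1b, 38.7% for Vti1a, 44.9% for Sec22b and 58.7% for Sec13. Of the other 40 genes, 1 fell in the edgeR test, the SNARE Snap47 (log2 -0.53, SE 0.08, adjusted p = 0.0160), and the median of these 40 was 0.01 on the log2 scale. With the replicate number as a block, the ESCRT-II subunit Vps25 was also called (log2 -1.44, adjusted p = 0.00291).

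The list of basal transcription factors also held genes of the Mediator kinase and of the Integrator complex. Members among its 35 genes tested were Taf1b for RNA polymerase I and Gtf3c3 of the TFIIIC factor for RNA polymerase III. Mnat1 of the TFIIH kinase and Ints5 of Integrator were members too, so factors of RNA polymerases I, II and III were each represented. Mnat1 was at 41.3, 46.9 and 43.0 CPM in the EtOH control, 11.0, 16.1 and 15.5 in Zbtb11 KO cells and 40.8, 43.5 and 44.2 in the 4OHT control. Gtf3c3 was at 71.6, 74.0 and 77.8, at 38.7, 41.1 and 38.9, and at 66.5, 74.95 and 74.6 CPM. In both genes the 4OHT control lay close to the EtOH control. Of the other 31 genes, edgeR called 0 without the block. With it, Ccnc, Gtf2h2 and Gtf2h4 were called lower and Ints12 higher, with log2 changes of -0.54, -0.38, -0.34 and 0.44.

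Chromatin complexes contributed Ino80b, Supt7l of the SAGA coactivator, the remodeller Rad54l2, Dmap1 of the TIP60 and SRCAP complexes, and Hira, the chaperone that deposits histone H3.3. Rad54l2 was at 128, 125 and 125 CPM in the EtOH control, at 44.6, 49.6 and 46.8 in Zbtb11 KO cells and at 164, 145 and 159 in the 4OHT control. Hira stood nearer to the limit, at 68.5, 105 and 107, at 39.9, 62.0 and 66.3, and at 99.5, 124 and 133 CPM. Its replicate 1 was the lowest of each group, and the EtOH control's replicate 1 lay close to the KO's replicate 3. Of the other 20 genes tested on this list, 0 were called lower or higher by edgeR with or without the block.

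For RNA maturation the members named tRNA and ribosome enzymes. Adat2 deaminates the wobble adenosine of tRNA, Tsen15 belongs to the tRNA splicing endonuclease, Trub2 makes pseudouridine and Gtpbp3 modifies mitochondrial tRNA. Their KO means were 29.3%, 36.2%, 49.1% and 46.1% of the EtOH control. Wdr36 of the small subunit processome was at 159, 179 and 175 CPM in the EtOH control, at 41.2, 56.0 and 50.3 in Zbtb11 KO cells and at 160, 157 and 187 in the 4OHT control. Rbm28, Exosc4 of the RNA exosome and Las1l, a nuclease of the large subunit precursor, were at 36.9%, 53.1% and 61.1%. Of the other 22 tRNA genes and 30 ribosome and exosome genes, 0 were called by edgeR, and 1 (Dus1l) and 2 (Mphosph10 and Utp3) were called lower with the block. Splicing factors gave Arl6ip4, Nkap and Wdr83 as members, and of the other 22 tested only Snrnp27 fell (log2 -0.73, SE 0.12, adjusted p = 0.0192 in edgeR). With the block Ccdc94 was called lower and Snrnp200 higher, with log2 changes of -0.95 and 0.44.

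In protein turnover, Psmg3 and the proteasome inhibitor Psmf1 were the members among 37 proteasome genes. The KO mean of Psmf1 was 55.2% of the EtOH control. The other 35, the core subunits among them, gave 0 calls without the block and 1, Psmc2 (log2 -0.55), with it. Anapc5, Cops7b of the COP9 signalosome and Commd2 were the members among 31 genes of the anaphase-promoting complex, COP9 and COMMD families, with KO means of 52.0%, 47.4% and 32.7%. Cdc16, another subunit of the anaphase-promoting complex, was called lower as well (log2 -0.59, SE 0.10, adjusted p = 0.0285 in edgeR), and it is the gene named above as lying just outside the ratio limit.

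The list of intramembrane proteolysis, palmitoylation and glycan enzymes held 7 members among 22 genes tested. Besides Zmpste24, they were Zdhhc6, a palmitoyltransferase, Mbtps2, the site-2 protease that frees SREBP and ATF6, Dpagt1, which starts N-glycan synthesis, B4galt7, which builds the linker of glycosaminoglycans, Man2c1, a cytosolic mannosidase of free glycans, and Dpy19l4. Zdhhc6 was at 41.3, 51.8 and 49.5 CPM in the EtOH control, at 14.2, 16.8 and 14.9 in Zbtb11 KO cells and at 35.1, 49.0 and 55.1 in the 4OHT control. Mbtps2 was at 48.5, 44.7 and 47.2, at 21.6, 20.03 and 18.2, and at 34.8, 40.0 and 45.0 CPM, with the 4OHT control below its EtOH control in each pair. The other 15 genes gave 0 calls with or without the block.

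On the list of mitochondrial proteins outside the complex I and mitochondrial ribosome families, 11 of 31 genes tested were members. With Acsf3, Coq3, Taco1 and Gtpbp3, these were Atpaf1, an assembly factor of ATP synthase, Agk, an acylglycerol kinase, Hemk1, a methyltransferase of release factors, Sarm1, an NAD-cleaving enzyme, Nif3l1, Tmem69 and Mitd1. The product of Mitd1 is known from ESCRT-III and the last step of cell division and not as a mitochondrial protein. Agk was at 17.6, 19.5 and 21.4 CPM in the EtOH control, at 5.77, 8.82 and 8.53 in Zbtb11 KO cells and at 19.9, 25.7 and 24.2 in the 4OHT control. Of the other 20 genes, Them4 fell (log2 -2.48, SE 0.22, adjusted p = 0.000396 in edgeR). Its EtOH control values of 2.33, 2.01 and 2.33 CPM lie under the 5 CPM minimum, which is why it is no member. Pex3, which inserts membrane proteins into peroxisomes, was the 1 member among 14 peroxisome genes, at 13.1, 12.1 and 13.5 CPM against 3.30, 4.85 and 2.78. In the cilium list, Bbs1, Ttc26 and Rttn were members among 24 genes, at 40.8%, 46.7% and 54.0% of the EtOH control. Of the other 21, Efcab7 fell (log2 -1.67, SE 0.23, adjusted p = 0.00727 in edgeR) from an EtOH control level of 3.92 to 5.01 CPM.

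Across the 12 machines the median log2 change of the genes that are no members lay between -0.02 and 0.03, while the members lay between -2.39 and -0.75. The choice of members all but fixes this gap. The ESC markers and the markers of other cell types held 0 members, and 0 of their 14 tested genes were called by edgeR between Zbtb11 KO and EtOH control cells. Over the 9 lists without a call among their other genes, edgeR put 6 of 180 genes lower and 3 higher at an unadjusted p under 0.05. Of all genes tested, 2.80% were under it in either direction. DESeq2 called 0 of the 180, against 1.255% of all genes, but these lists were picked for having no edgeR call.

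**Figure D3:**
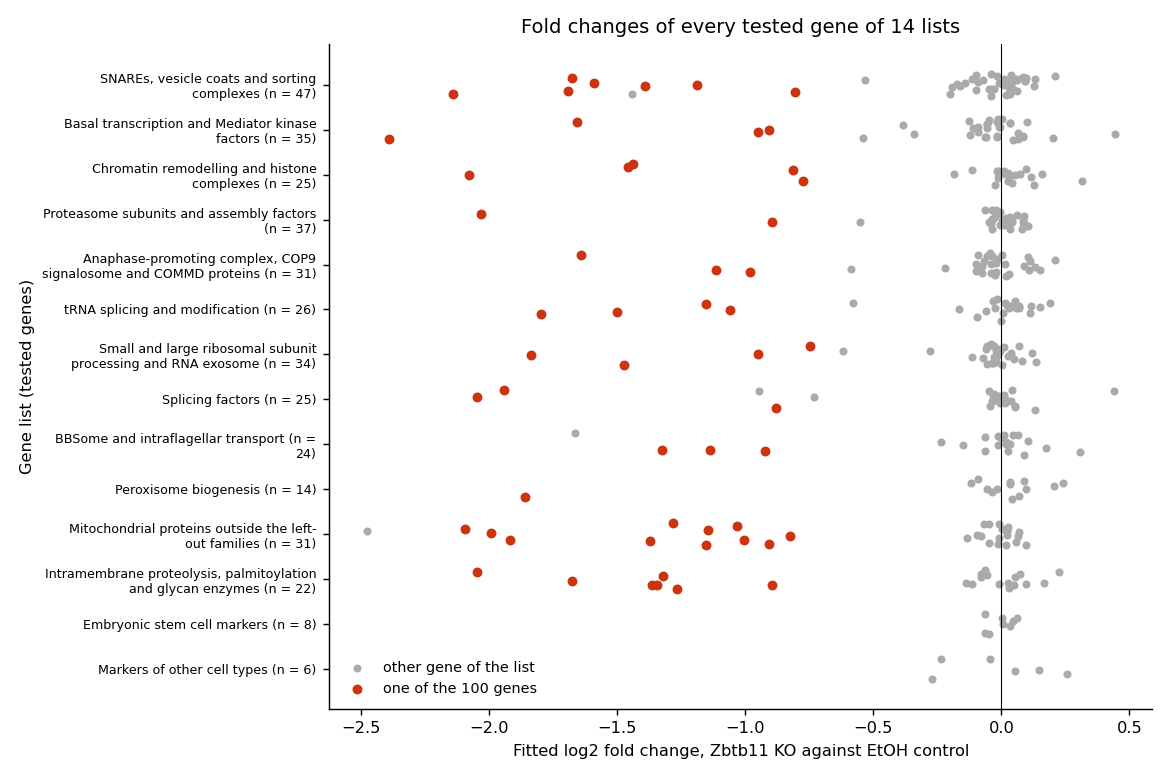
Fitted log2 fold change of Zbtb11 KO against EtOH control (edgeR) for each tested gene of 14 lists, with members of the 100 in red and the other genes of a list in grey. The red points lie left because they were chosen there, and the grey points cluster around 0, with Them4 at -2.48, Efcab7 at -1.67 and Vps25 at -1.44 as the farthest of them.

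The 47 genes in none of the lists included several of known function. Acbd6 binds acyl-CoA, Tbc1d19 has a Rab GAP domain, Eefsec delivers selenocysteine tRNA to the ribosome, Trip4 is a subunit of the ASC-1 coactivator, Helq is a DNA helicase and Itgb3bp a centromere protein. Their KO means were 29.0%, 31.8%, 45.4%, 41.4%, 55.4% and 36.7% of the EtOH control.

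The 4OHT control cells kept Zbtb11 and received the same agent, but their genotype differs from that of the EtOH control. A difference between these 2 controls can come from genotype or agent, which cannot be told apart. The 4OHT control libraries were not used to choose the genes, but the EtOH control libraries were, and they serve as reference here. The median log2 difference of 4OHT control to EtOH control was 0.10 over the 100 genes, from -0.56 to 1.00, with 93 genes within 0.5 of 0. Markers of other cell types also differed between these controls. Of the 6 tested, edgeR called 2 lower in the 4OHT control, Acta2, at 7.58, 7.71 and 18.3 CPM against 0.629, 0.803 and 1.52, and Col1a2, at 3.29, 2.97 and 3.18 against 1.05, 0.714 and 0.649. In Zbtb11 KO cells they were at 8.95, 9.16 and 17.7, and at 3.36, 2.25 and 3.77 CPM. Of the same 6 markers, 0 were called higher. Thy1, which was not called, went the other way in each pair, at 9.75, 6.49 and 6.80 CPM in the EtOH control against 13.2, 12.4 and 9.39. The part of these markers in the values of the 100 genes was not tested. The fit put 67 of the 100 genes higher and 33 lower in the 4OHT control, against 50.1% higher over all genes tested. In 31 genes every 4OHT control value was above every EtOH control value, against 11.0% of all genes, and in 5 genes every value was below, against 10.6%.

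By edgeR, 7 of the 100 were higher in the 4OHT control than in the EtOH control (2.05% of all genes tested were) and 0 were lower (2.00%). At an unadjusted p under 0.05 the counts were 24 (9.26% of all genes) and 3 (8.71%). Sarm1 differed most, at 11.2, 9.55 and 10.7 CPM in the EtOH control and 21.7, 21.4 and 20.3 in the 4OHT control (log2 1.00, SE 0.12, edgeR adjusted p = 0.00361). Its Zbtb11 KO values were 4.39, 4.65 and 5.50 CPM, so the groups do not overlap and the KO lay below both controls. 1300010F03Rik was at 33.8, 32.2 and 30.4 against 48.8, 47.5 and 44.1 CPM in the 4OHT control (log2 0.53, SE 0.08, adjusted p = 0.00887). Acsf3, with the values given above, was higher too (log2 0.61, SE 0.11, adjusted p = 0.0178). The other 4 were Gtpbp3, the pleckstrin homology gene Plekhm3, the prostacyclin synthase Ptgis and Arl6ip4, with log2 differences of 0.45, 0.50, 0.56 and 0.41 and adjusted p values of 0.0255 to 0.0411. All 7 were higher in each of the 3 replicates.

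Libraries of the same replicate number tended to deviate together, though not in every case more than others did. With that number as a block 37 of the 100 genes were higher in the 4OHT control (17.0% of all genes tested) and 7 lower (16.5%). DESeq2 called 14 higher (4.11% of all genes) and 2 lower (4.16%). Without replicate 2, and likewise without replicate 3, edgeR called 0 of the 100, with 9 and 11 higher at an unadjusted p under 0.05, against 3.34% and 4.78% of all genes. Sec13 had the lowest difference. It was at 97.9, 126 and 120 CPM in the EtOH control, 57.1, 74.8 and 70.3 in Zbtb11 KO cells and 69.2, 82.0 and 84.5 in the 4OHT control (log2 -0.56, SE 0.15, adjusted p = 0.0824, and 1.27e-07 with the block). Its 4OHT control values overlapped those of the KO.

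Against the 4OHT control, which shares the KO libraries with the choice of genes, the values are given as a description. The median log2 difference of Zbtb11 KO to 4OHT control was -1.39, from -3.05 to -0.25, beside -1.25 against the EtOH control, from -2.71 to -0.75. The KO was below the 4OHT control in every pair for all 100 genes (25.0% of all genes tested), and at or below a ratio of 0.67 in every pair for 93 (2.94%). The highest KO value was below the lowest 4OHT control value in 97 genes, against 9.98% of all genes tested, and the exceptions were Tmem69, Ints5 and Sec13. In Ints5 the KO values were 26.1, 47.8 and 43.5 CPM and the 4OHT control values 45.5, 81.4 and 91.6, so that the overlap came from replicate 1, the lowest library of each group. In edgeR 92 of the 100 were lower (3.72% of all genes), and all 100 with the block (18.1%). The block also raised the count against the EtOH control to 100 (1.79% of all genes).

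ChIP-seq gives a measure that did not choose the genes, the occupancy of their promoters by Zbtb11. The authors deposited normalised coverage in 7500 consensus peaks. A promoter was taken as 2000 bases before to 500 bases after an annotated transcription start. Of the 100 genes, 96 had a consensus Zbtb11 peak there, against 31.1% of all genes tested. With peaks above a mean coverage of 309, the upper quartile plus 1.5 interquartile ranges over all 7500, the count was 95, against 6.08%. The values of 22 and 21 for the 24 genes left out by name were close to these shares. In the peak list of the FLAG control, 0 of the 100 genes and 0.265% of all tested genes had a promoter peak.

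The median coverage of the genes' promoter peaks was 523, 749, 513 and 987 in the 4 Zbtb11 libraries and 682, 704 and 413 in the 3 FLAG-Zbtb11 libraries. Over all 4459 tested genes with a promoter peak, the medians were 96.7, 103, 108 and 103, and 94.98, 95.04 and 99.8. The ratio of the medians was 4.73 to 9.59 with the antibody and 4.13 to 7.41 with FLAG. Each library showed the difference, and its size varied with the library. For single genes the 2 assays could part. Sarm1 had a mean of 461 with the antibody but 49.1, 73.1 and 60.1 in the FLAG-Zbtb11 libraries. Atpaf1 had means of 567 and 276. The 96 genes fell on 91 distinct peaks, of which 22 were among the 100 strongest and 85 among the 500 strongest. Peak centres lay close to transcription starts, within 200 bases for 92 of the 96 genes and for 65.6% of all genes with a promoter peak.

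**Figure D4:**
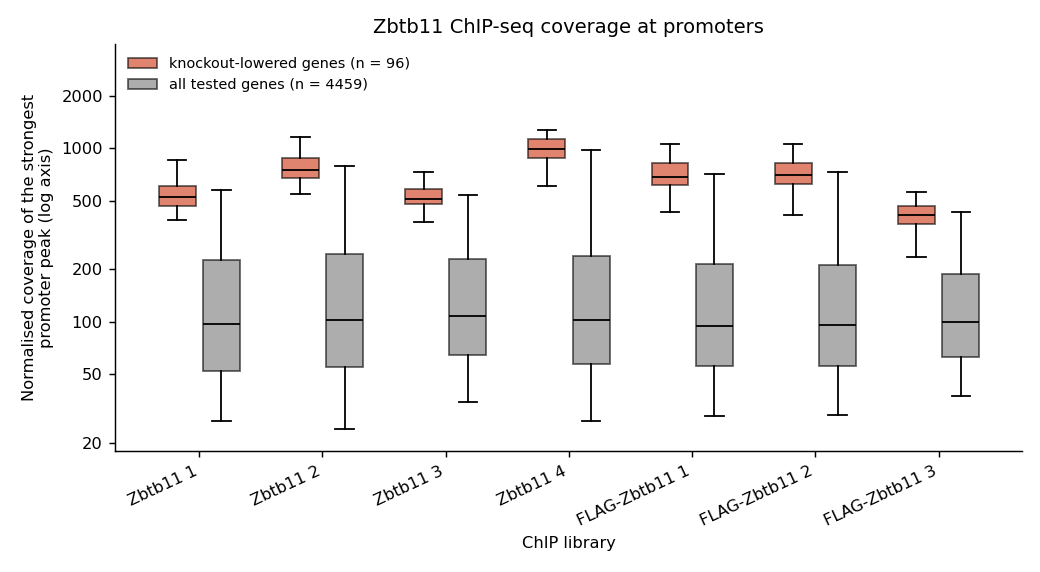
Normalised ChIP-seq coverage (log axis) of the strongest promoter peak per gene in each Zbtb11 and FLAG-Zbtb11 library, for the knockout-lowered genes (red, n = 96) and all tested genes with a promoter peak (grey, n = 4459), with boxes for the interquartile range, a line at the median and whiskers at percentiles 5 and 95. In every library the red box lies above the grey box, with medians of 413 to 987 against 94.98 to 108.

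Within the 96 genes, coverage did not order them by their decrease. Spearman's rho between mean coverage and mean log2 ratio was -0.05 over the 96 genes, which share the same libraries, and it is given as a description. In 3 groups of 32 genes, ordered by the size of the decrease, the median coverage was 709, 665 and 705 while the median log2 ratio was -1.85, -1.24 and -0.85. Strong occupancy was also not particular to lowered genes. Of the 100 genes with the strongest promoter peaks, 18 were members, 19 met the values, and the other 81 had a median log2 change of -0.01 in Zbtb11 KO cells.

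The 4 genes without a consensus promoter peak were Arl6ip4, Nsfl1c, Ptgis and Gm15920. Arl6ip4 and Nsfl1c had a promoter peak in the separate antibody and FLAG lists, while Ptgis and Gm15920 had none in any list. Ptgis was at 10.1, 10.0 and 11.0 CPM in the EtOH control, at 5.77, 4.65 and 5.25 in Zbtb11 KO cells and at 16.2, 15.2 and 14.8 in the 4OHT control. Ccdc106 had only a weak consensus peak, with a mean coverage of 40.8 and rank 5590 of 7500.

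The strongest promoter peak of a member belonged to Man2c1, rank 2 of all 7500, with a coverage of 970, 1435, 767 and 1753 in the 4 Zbtb11 libraries. The peaks of 1110004E09Rik (937, 1230, 857 and 1391) and Zmpste24 (874, 1178, 730 and 1435) ranked 5 and 10. Rank 15 was a single peak (857, 1161, 707 and 1270) between the starts of Wdr83 and BC056474, both members. Library 4 was the highest and library 3 the lowest for each of these peaks. Ankrd40, the most lowered gene, had a peak of rank 101 (572, 810, 610 and 1167), and Taf1b, the second, had one of the weakest, rank 767 with a mean of 339.

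The sequences under these peaks are shown because they carry the strongest occupancy among the 100 genes and, for Ankrd40, the largest decrease. Each runs 5′ to 3′ on the strand of the gene named, from 150 bases before the peak's centre to at most 50 bases past the gene's start, read from the mm9 genome. Capitals mark CCGGAAG, the core bound by ETS factors such as GABPA, and CGGAACC, a word described below, on either strand. Their positions are chr9:56978418-56978624 (+) for Man2c1, chr16:90935023-90935245 (-) for 1110004E09Rik, chr4:120770797-120771011 (-) for Zmpste24, chr8:87604608-87604907 (-) for Wdr83 and chr11:94189147-94189364 (+) for Ankrd40.
Man2c1: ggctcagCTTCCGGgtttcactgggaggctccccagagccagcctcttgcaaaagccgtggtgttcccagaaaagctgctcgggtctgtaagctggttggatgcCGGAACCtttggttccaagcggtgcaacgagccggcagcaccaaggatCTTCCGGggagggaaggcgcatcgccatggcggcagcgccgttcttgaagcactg
1110004E09Rik: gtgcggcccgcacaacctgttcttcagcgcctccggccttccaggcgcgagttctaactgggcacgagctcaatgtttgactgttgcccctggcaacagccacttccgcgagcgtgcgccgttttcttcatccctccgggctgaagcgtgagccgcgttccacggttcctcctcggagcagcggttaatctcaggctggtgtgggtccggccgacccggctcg
Zmpste24: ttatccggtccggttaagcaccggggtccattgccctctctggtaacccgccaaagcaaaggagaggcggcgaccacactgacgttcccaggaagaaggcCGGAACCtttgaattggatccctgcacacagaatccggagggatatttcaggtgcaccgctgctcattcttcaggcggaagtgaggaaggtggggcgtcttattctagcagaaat
Wdr83: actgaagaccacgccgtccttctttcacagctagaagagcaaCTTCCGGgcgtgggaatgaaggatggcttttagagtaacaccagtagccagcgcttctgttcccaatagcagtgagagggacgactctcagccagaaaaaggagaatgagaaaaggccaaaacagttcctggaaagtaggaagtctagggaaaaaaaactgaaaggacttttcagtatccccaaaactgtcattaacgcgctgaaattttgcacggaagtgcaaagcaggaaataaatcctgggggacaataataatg
Ankrd40: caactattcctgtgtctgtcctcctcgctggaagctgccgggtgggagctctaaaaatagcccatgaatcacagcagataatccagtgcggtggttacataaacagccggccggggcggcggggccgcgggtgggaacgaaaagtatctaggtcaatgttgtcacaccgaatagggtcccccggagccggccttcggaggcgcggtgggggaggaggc

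The annotated start nearest the peak's centre is at base 158 of the Man2c1 sequence, 174 of 1110004E09Rik, 166 of Zmpste24, 263 of Wdr83 and 169 of Ankrd40. That of BC056474 is at base 36 of the Wdr83 sequence on the other strand. The windows searched below are set on a gene's outermost start instead, which can be a different start, as it is for Man2c1. Man2c1 held 2 matches to CCGGAAG, 1 of them at the start at base 158, and 1 to CGGAACC. Zmpste24 held 1 match to CGGAACC and Wdr83 1 to CCGGAAG. The 1110004E09Rik and Ankrd40 sequences held neither.

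Over the window from 250 bases before to 50 bases after the outermost start, on both strands, CCGGAAG was present in 32 of the 100 promoters (32%) and in 15.7% of the promoters of all 14336 genes searched. Its share was 44.4% in 756 genes with a promoter peak above 309 that were not lowered, so the share was above that of all promoters in strongly occupied genes of either kind. The 41 matches lay at a median of 19 bases before the start. The 32 genes with a match had a median log2 ratio of -0.98, and the 68 without it one of -1.31. The Sp1 box GGGCGG was in 39% of the genes' promoters against 59.4% of all, and the NFY box CCAAT in 25% against 38.5%. The median GC content was 54.7% against 59.7%. TATAAA was in 6% and ACTACAA, the core bound by ZNF143, in 4%, against 8.01% and 3.94%. The longer words GCGCATGCG (NRF1), AAGATGGC (YY1) and TGACGTCA (CREB) were in 0 of the 100 windows and in 3.20%, 4.26% and 3.09% of all. A match is a run of letters and not a shown site.

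CGGAACC was found by counting all 8192 words of 7 bases (with their reverse complements) in the 200 bases around peak centres, and it was picked for its difference, which therefore has no test. It was in 37.4% of the 91 peaks of the 100 genes, in 21.3% of 767 other peaks above 309 and in 5.81% of 6642 weaker peaks. For CCGGAAG, with which it shares the letters CGGAA, the shares were 36.3%, 44.5% and 22.7%. Of the 91 peaks, 12 held both words and 36 neither.

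Many housekeeping genes start head to head with a neighbour, which allows the 2 sides of a Zbtb11 peak to be compared. Of the 100 genes, 32 had an annotated gene on the other strand starting within 1000 bases, and 23 a tested one, against 14.9% of all tested genes. In 10 genes the neighbour was itself a member, which makes 5 pairs. These were Adat2 with Pex3, Vti1a with Zdhhc6, 1110034B05Rik with 9430016H08Rik, Slc4a1ap with Supt7l, and BC056474 with Wdr83. In the last pair the KO mean was 28.7% of the EtOH control for BC056474 and 55.7% for Wdr83, under a single peak. Slc4a1ap and Supt7l were alike, at 38.5% and 37.7%. In each of these pairs except Vti1a with Zdhhc6, exons of the 2 genes overlap on opposite strands. Whether strand was used in counting is not known, so reads may be mixed and the 2 values may not be separate measures.

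The 13 tested neighbours that are no members had a median log2 change of -0.20 in Zbtb11 KO cells, and 2 of them fell by edgeR, where 0.843% of all genes did. Both belong to the mitochondrial ribosome family that was left out by name, and both met the values that chose the 100. Mrpl30, the neighbour of Mitd1, was at 38.3, 47.7 and 47.3 CPM in the EtOH control, 13.2, 17.5 and 17.4 in Zbtb11 KO cells and 41.2, 44.1 and 46.8 in the 4OHT control (log2 -1.51, SE 0.15, adjusted p = 0.000943). Mrpl13, the neighbour of Mtbp, was at 38.1, 44.6 and 45.3 CPM in the EtOH control and 19.5, 24.8 and 26.2 in the KO (log2 -0.90, SE 0.15, adjusted p = 0.0219). Without replicate 2 or without replicate 3 neither passed the threshold, and only 13 and 21 genes of all those tested did as lower. Exons of Mrpl13 overlap those of Mtbp on the opposite strand, so reads of these genes may be mixed. With the block, Ppil3, the neighbour of Nif3l1, was called as well (log2 -0.50, adjusted p = 0.0108).

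For other pairs the sides differed in size. Sar1b had a log2 change of -1.59 and Sec24a, another COPII gene on the other strand, one of -0.20. Trip4 and Csnk1g1 were at -1.31 and -0.01, and Cops7b and Pde6d at -1.11 and -0.01. Man2c1, under its rank 2 peak, was at -1.36 and 2410133F24Rik at -0.23 (SE 0.22). The latter is a noncoding gene at only 2.17, 1.97 and 2.15 CPM in the EtOH control. Its exons overlap those of Man2c1 on the opposite strand, so reads of this pair may be mixed. The difference between the sides of a pair was not tested.

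**Figure D5:**
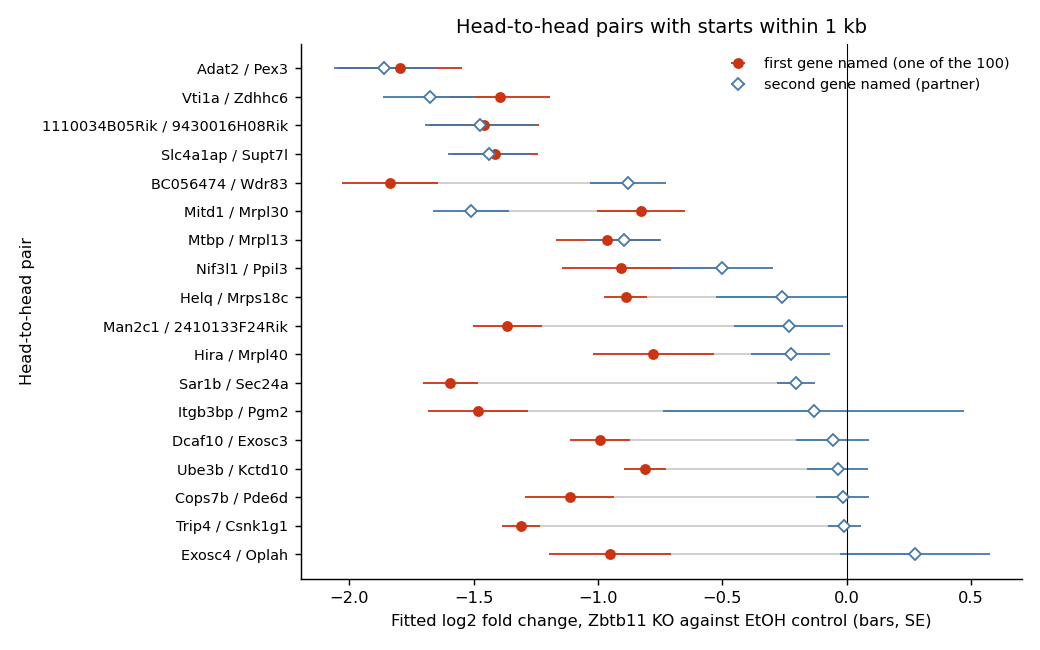
Fitted log2 fold change of Zbtb11 KO against EtOH control (edgeR, bars show the SE) for 18 pairs of genes that start head to head within 1000 bases, with the first gene named, a member, as a filled point and its neighbour as an open diamond. In the top 5 pairs both are members and lie between -0.88 and -1.86, and below Mitd1 with Mrpl30 and Mtbp with Mrpl13 most neighbours lie near 0.

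Some of these values rest on shared sequence. In 4 genes more than 50% of the exon bases matched another gene over at least 100 bases at 95% identity or more. They were 2700062C07Rik (100%, with Gm9182), Gm15920 (100%, with Ndufa12), Ints5 (92.2%, with Gm13126) and 2810408M09Rik (55.4%, with Trp53rk). Gm9182 and Gm13126 held 14 and 11 reads over all libraries. Ndufa12 is itself a lowered gene left out by name, so reads of Gm15920 and Ndufa12 could have been split between them. Trp53rk held 434 reads and 2810408M09Rik 1272, so the same holds for this pair. The symbol Trp53rk is also one the choice leaves out, though that gene did not meet the values. On the opposite strand, exons of 20 members overlapped those of a tested gene. Among them were Mtbp, Nif3l1 and the genes of the member pairs above, except Vti1a with Zdhhc6. The libraries were directional, but whether strand was used in counting is not given in the sources used here, so for those 20 genes the reads of the 2 strands may be mixed.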

How the data were processed

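The RNA-seq values are gene counts as deposited by the authors, without normalisation. TrimGalore and PRINSEQ had been used on the paired-end reads, STAR for alignment and HTSeq for counting. All 37310 identifiers were paired with a symbol of GENCODE vM1. The ChIP-seq values are normalised coverage (signal) over consensus peaks as deposited by the authors. For these, Cutadapt served to trim the single-end reads, Bowtie 1.1.2 to align them to the mm9 build, MACS2 to call peaks over replicates and DiffBind to normalise. Input libraries were not analysed here.

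CPM and RPKM used the totals on genes. A gene was tested if over 1 CPM in 3 or more libraries (2 where a replicate was left out). The test was edgeR 4.0.16 in R 4.3.3, with TMM, all 9 libraries in 1 fit, a two-sided quasi-likelihood F test and Benjamini-Hochberg adjustment over 14346 genes at a threshold of 0.05. All 100 genes passed this filter. Adjusted p values are edgeR's unless DESeq2 1.42.0 is named. The method was tested on simulated data, which held no effect of the replicate number. As a check of pairing, deviations of log2 (CPM + 0.5) from group means were correlated between libraries. The values were 0.476 to 0.843 between libraries of 1 number and 0.554 at most between others. These ranges overlap, so the pairing is not clear for every library, and the number was also fitted as a block.

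The members and the lists were chosen with earlier results of these data known. Genes are named if they are among the 15 most lowered, called in the 4OHT control, among the 10 most abundant per length, on a list, without a consensus promoter peak, called neighbours, next to the ratio limit, or among the 5 strongest promoter peaks. Others, such as the 6 described outside the lists, Them4, Efcab7 and the uncalled neighbours, were named after their values were seen. Exons were compared with blastn 2.17.0 and sequences read from mm9 with samtools 1.23.1. Alternatives were DESeq2, library totals, other filters, a threshold of 0.01, only the groups compared, the block and each replicate left out, and other limits for membership, peaks and distances.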

Additional observations from a re-analysis of the deposited data

How the results depend on the processing

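Of 48 alternatives to the counts and medians of the report, 34 stayed within 1.5 times the reported value or within its spread. The number of the 100 genes called in the 4OHT against the EtOH control, 7 as reported (4.05% of all genes in either direction), was 44 with the replicate block (33.6%), 16 with DESeq2 (8.27%), 3 with no filter on low counts (1.61%), 2 with only the groups compared (1.22%), 2 at an adjusted p under 0.01 (0.934%), and 0 to 25 with 1 replicate left out. It was 0 without replicate 2 or 3 (0.0896% and 0.165%) and 25 without replicate 1 (17.1%). Without 1 replicate the calls against the EtOH control ranged from 10 to 100 (81 as reported), those against the 4OHT control from 36 to 100 (92 as reported) and the called head-to-head neighbours from 0 to 2 (2 as reported), highest without replicate 1 and lowest without replicate 2, for the neighbours also without replicate 3. The cause was not tested. The block, fitted because libraries of 1 number tended to deviate together, changed no other of these counts by more than 1.5 times. For single genes 298 of 351 alternatives kept their side of the threshold and 53 lost it, 42 of these without a replicate, and 0 changed sign. Other limits gave 83 genes (ratio of 0.6), 121 (0.75), 112 (1 CPM), 84 (10 CPM) and 114 (ratio of group means). With 3 libraries a group, changes smaller than those of the 100 genes may have gone uncalled.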

Other observations

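The genes that were strongly occupied and yet not lowered stood beside the 100 in the ChIP-seq values. Of the 400 genes with the strongest promoter peaks, 75 were members and 90 met the values that chose them. Of the 50 strongest, 11 were members. In the promoter window CGGAACC was present in 29 of the 100 genes and in 5.17% of all promoters, and 55 of the 91 member peaks held this word or CCGGAAG. Further words that stood out by the same count were GCGGAAC, in 25.3% of the member peaks, 14.5% of the other peaks above 309 and 3.91% of the weaker ones, and CCGGAAC, in 27.5%, 21.5% and 7.12%. These words overlap one another, they were picked on the same peaks after the data had been seen, and no test was made of them.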
